A study of Mus musculus with 18 samples.

Results

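The endoderm transcription factors described here are Sox17, Sox7, Foxa1, Foxa3, Hnf4a and Gata6, the 6 genes of 31053 in the deposited gene lists whose symbols match a set of names that was chosen with earlier results of these data known. They were followed in E8.5 mouse embryos (embryonic day 8.5) without the DNA methyltransferase Dnmt1, Dnmt3a or Dnmt3b. Transcripts were counted as unique molecular identifiers (UMIs) in single cells of whole embryos, with 1 embryo per library and the 10x Genomics 3' chemistry. Raw UMIs were summed per embryo, over all cells that passed the filters or over the cells of a class, and are given as counts per 1000000 UMIs (CPM). The counts come from the 3' end of transcripts, so levels are compared within a gene and not between genes.

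Endoderm arises at gastrulation under Nodal signalling, and the definitive endoderm that leaves the primitive streak lines the gut tube. An older lineage, the primitive endoderm, gives the visceral endoderm of the yolk sac, which takes up and secretes nutrients for the embryo, and the parietal endoderm, which lays down a basement membrane. Gata6 specifies primitive endoderm and is also a regulator of heart mesoderm. Sox17 is required for definitive endoderm and, with its relative Sox7, is also a regulator of endothelium. Foxa1 and Foxa3 are forkhead factors that open chromatin in endoderm, and Hnf4a is a nuclear receptor that drives serum protein genes in yolk sac endoderm and liver.

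There were 7 WT embryos and 3 embryos labelled null for Dnmt1 (Dnmt1 KO) and 4 for Dnmt3a (Dnmt3a KO). For Dnmt3b there were 4 libraries labelled null (Dnmt3b KO), counted as 3 samples for the reason given below. The strain background in the labels is 129S4/SvJae for the groups used here. Heterozygous parents were mated, and genotype was read by PCR. The deletions are present in every cell, extraembryonic lineages included. Dnmt1 copies methylation onto replicated DNA, whereas Dnmt3a and Dnmt3b place it on sites that carried none. The comparisons ask where these 6 genes are transcribed in WT and whether their levels differ without each enzyme.

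Of 128881 barcodes with at least 1500 mouse UMIs, 107980 were kept, 1361 to 12595 per library, with 36504510 to 234084971 summed UMIs. Dnmt3b KO 1 and Dnmt3b KO 2 shared 12249 cell barcodes (86.5% and 79.3% of their barcodes), against at most 133 in any other pair of libraries, so they were counted as 1 sample by their mean and the Dnmt3b KO group has n = 3. Dnmt1 was at 14.9 to 15.7 CPM in Dnmt1 KO and 83.2 to 115.6 CPM in WT, and Dnmt3a was at 7.47 to 11.8 CPM in Dnmt3a KO and 23.2 to 34.95 CPM in WT. Dnmt3b was at 54.5 to 68.3 CPM in Dnmt3b KO, inside the WT range of 35.5 to 87.5 CPM, and where the counted 3' end lies relative to the deletion is not given in the sources used here, so its level checks nothing. The library labelled Dnmt3b KO 12 had 7.57 CPM of Dnmt3a, inside the range of Dnmt3a KO, which goes against its label, and Dnmt3b KO 11 had 15.2 CPM, between the ranges of Dnmt3a KO and WT, whereas Dnmt3b KO 1 and 2 had 32.1 and 31.95 CPM. The named results of Dnmt3b KO are therefore also given without Dnmt3b KO 12, an alternative with 2 samples in the group, and no member was called against WT when either library was left out. Y-linked transcripts were above 10 CPM in 3 of 3 libraries of Dnmt1 KO, 4 of 4 of Dnmt3a KO, 3 of 4 of Dnmt3b KO and 1 of 7 of WT, so sex and genotype are largely joined in these comparisons. Only WT 2 and Dnmt3b KO 12 set Y-linked counts apart from the WT or KO label. Fits with a Y-linked covariate therefore rest largely on these libraries. A reference of human and mouse together was used to count 4 libraries (Dnmt3b KO 11, WT 1 and the pair Dnmt3a KO 1 and 13). Nothing states whether embryos of a group came from separate litters, so p-values measure the spread between these embryos.

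Sox17 (ENSMUSG00000025902) lies at chr1:4490931-4497354 on the minus strand of mm10, Hnf4a (ENSMUSG00000017950) at chr2:163506808-163572910 on the plus strand and Foxa3 (ENSMUSG00000040891) at chr7:19013284-19023538 on the minus strand. Foxa1 (ENSMUSG00000035451) lies at chr12:57540628-57546916 on the minus strand and Sox7 (ENSMUSG00000063060) at chr14:63943673-63950732 on the plus strand. The annotation lists these 5 as protein-coding genes. Since the deleted enzymes methylate CpG dinucleotides, the bases before the start sites are shown where RefSeq (GRCm38.p6) gave them, which was so for 3 members, with every CpG in capitals. The windows stop short of the start so that they hold none of the annotated UTR. Foxa1 and Hnf4a each have a further start upstream in the annotation. The Foxa1 window lies before the start of its coding transcript and inside an intron of a noncoding transcript from the upstream start. The window at the downstream start of Hnf4a lies in an intron of the transcript from the upstream start and overlaps an exon of a noncoding transcript, and the upstream one lies in the antisense gene Hnf4aos. No methylation was measured in these libraries.

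Each window spans the bases from 250 to 51 before a RefSeq start site, 200 in all, written 5' to 3' along the gene. The upstream RefSeq start of Hnf4a is not the gene start given above.
Foxa1 downstream start (chr12:57546162-57546361, minus strand): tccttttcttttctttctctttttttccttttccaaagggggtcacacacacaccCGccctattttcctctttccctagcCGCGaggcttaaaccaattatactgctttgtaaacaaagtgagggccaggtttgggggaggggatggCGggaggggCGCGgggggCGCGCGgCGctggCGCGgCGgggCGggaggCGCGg
Foxa3 (chr7:19023590-19023789, minus strand): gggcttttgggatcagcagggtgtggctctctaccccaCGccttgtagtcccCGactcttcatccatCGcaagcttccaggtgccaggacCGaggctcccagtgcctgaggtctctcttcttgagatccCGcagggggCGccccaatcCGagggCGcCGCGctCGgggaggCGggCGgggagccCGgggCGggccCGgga
Hnf4a upstream start (chr2:163506607-163506806, plus strand): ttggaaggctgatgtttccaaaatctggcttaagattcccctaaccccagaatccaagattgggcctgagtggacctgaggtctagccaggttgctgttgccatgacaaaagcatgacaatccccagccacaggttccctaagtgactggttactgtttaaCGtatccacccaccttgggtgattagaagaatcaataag
Hnf4a downstream start (chr2:163546905-163547104, plus strand): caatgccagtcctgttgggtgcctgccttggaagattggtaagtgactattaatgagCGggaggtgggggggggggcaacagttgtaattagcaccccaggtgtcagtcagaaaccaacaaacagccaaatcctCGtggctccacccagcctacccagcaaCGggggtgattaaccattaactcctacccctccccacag
Foxa1 and Foxa3 each held 16 CpGs in this window, more than 84.1% of 32851 mouse windows of the same length, whose median was 4. The windows of Hnf4a held 1 CpG at its upstream start and 3 at its downstream start. The forkhead letters TGTTTAC, read on both strands, occurred in the Foxa1 window and in 2.58% of all windows, and not in the windows of Foxa3 and Hnf4a.

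The class of a cell was read from marker genes that included none of the 6 factors, and the factors and the pathway genes given further on were kept out of the clustering. Among the 18 classes with enough cells in WT, Sox17 was highest in gut endoderm, at 122 ± 49.9 CPM (SD, n = 7, range 32.3 to 182.4), followed by endothelium at 94.5 ± 14.7 CPM (n = 7, range 81.4 to 120.4). The ranges of these classes overlapped. Yolk sac endoderm followed at 30.4 ± 9.10 CPM (range 18.8 to 44.0), below every WT endothelium value, and notochord at 23.5 ± 19.1 CPM (n = 4), which overlapped it. Allantois held 13.2 ± 4.27 CPM of Sox17 (n = 6).

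Sox7 marked endothelium, with 40.5 ± 5.18 CPM (n = 7, range 34.3 to 48.6), 11.1-fold the mean of yolk sac endoderm at 3.65 ± 0.828 CPM. It was at 0.127 ± 0.140 CPM in gut endoderm, so Sox17 and Sox7 shared endothelium and not the gut tube. Foxa1 was at 68.7 ± 10.6 CPM in gut endoderm (range 50.9 to 80.6) and 40.8 ± 16.4 CPM in notochord (n = 4), and these ranges overlapped. No other class exceeded a mean of 3.39 CPM, that of hindbrain and spinal cord, and yolk sac endoderm held 1.86 ± 0.551 CPM.

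Foxa3 was shared by yolk sac endoderm at 29.6 ± 4.96 CPM and gut endoderm at 26.4 ± 6.04 CPM, which overlapped, with 4.49 CPM in notochord. Hnf4a separated the same classes, with 62.3 ± 8.30 CPM in yolk sac endoderm (range 45.5 to 69.0) and 1.70 ± 0.958 CPM in gut endoderm, a ratio of means of 36.6 with no overlap. Gata6 (ENSMUSG00000005836), on chromosome 18, was highest outside endoderm among these 18 classes. It reached 153.5 ± 20.3 CPM in cardiomyocytes, 105.9 ± 6.91 CPM in extraembryonic (ExE) mesoderm, 105.4 ± 19.8 CPM in allantois (n = 6) and 98.5 ± 19.3 CPM in a mesoderm class led by Lhx1 and Osr1. That class scored highest for cranial mesenchyme markers (1.923) and next for intermediate mesoderm markers (1.601). Lhx1 and Osr1 are markers of the latter, while Alx1 and Prrx1, also among its leading genes, are markers of the former, so its name is open. Neighbours in this order overlapped. Gut endoderm came next at 55.2 ± 9.48 CPM, below the whole range of the class led by Lhx1 and Osr1. Pharyngeal mesoderm, endothelium and yolk sac endoderm held 35.2, 30.9 and 21.4 CPM of Gata6.

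**Figure D1:**
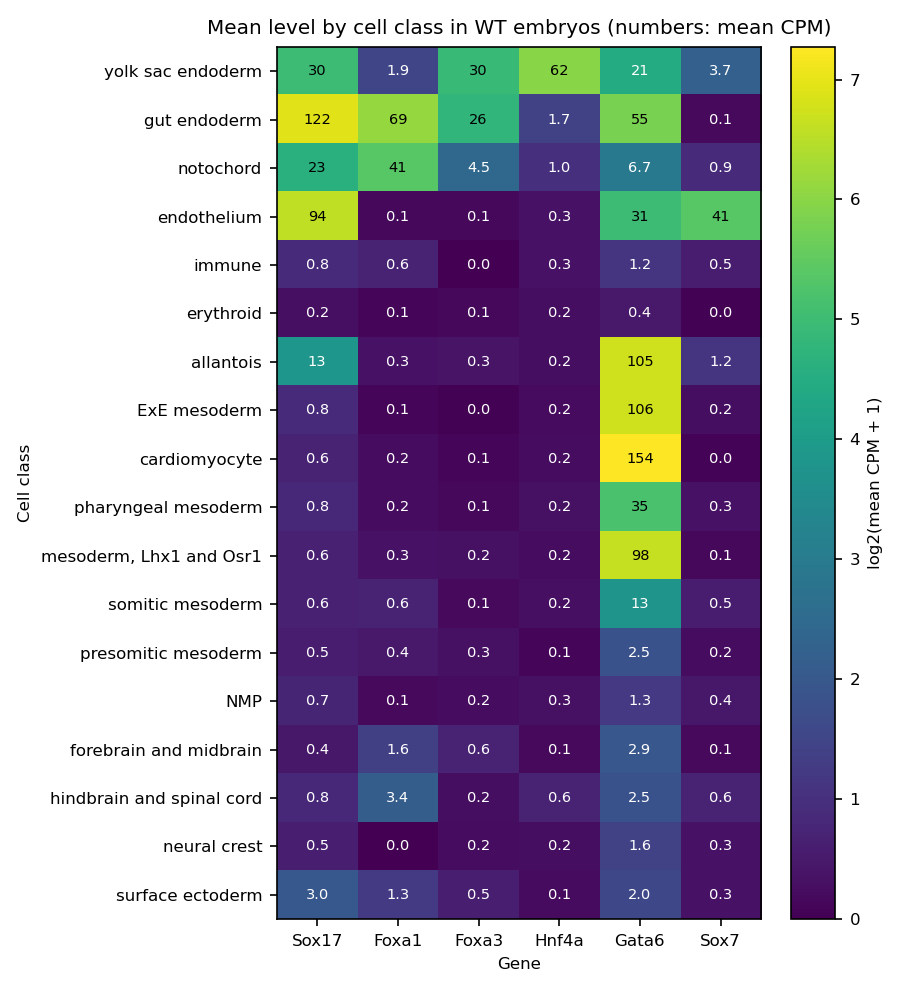
Mean CPM of each factor (columns) in 18 cell classes (rows) of WT embryos, with the mean printed in each cell and the colour giving log2(mean CPM + 1). Hnf4a is high in yolk sac endoderm alone (62 CPM), Foxa1 in gut endoderm (69 CPM) and notochord (41 CPM), Sox7 in endothelium (41 CPM), and Gata6 in cardiomyocytes (154 CPM) and other mesoderm.

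Parietal endoderm could be followed only as a pool of 41 kept cells from 8 libraries of all groups. Here Dnmt3b KO 1 and 2, with 8 cells together, were added and not averaged. Of the 10 WT cells, 8 were from WT 5. In the 10 cells from 2 WT embryos Sox17 was at 435.9 CPM (95% Poisson interval 355.0 to 529.6, counting error only), Gata6 at 517.9 CPM (429.4 to 619.2) and Sox7 at 129.5 CPM (87.35 to 184.8). Each of these is above the mean of that gene in all 18 WT classes, but the class was too small in any embryo to be tested. In the 20 cells from 2 Dnmt1 KO embryos Sox17 was at 291.7 CPM (251.6 to 336.3), Gata6 at 436.7 CPM (387.3 to 490.7) and Sox7 at 58.6 CPM (41.5 to 80.5). These intervals leave out the spread between embryos, so the groups were not compared. Over all 41 cells Hnf4a was at 2.93 CPM and Foxa3 at 0.977 CPM, and Foxa1 had 0 of 1023891 UMIs, whose 95% Poisson interval reaches 3.603 CPM.

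The genes whose WT pattern over the 18 classes was most like each factor were listed by Pearson r of mean log2(CPM + 1) among 10497 genes, as a description over classes of the same libraries. For Hnf4a these were Platr4 (r = 0.995), Anks4b (0.993) and Slco4c1 (0.993), and for Foxa3 they were Tmprss2 (0.986), Tmed6 (0.971) and Cdkn2a (0.97). Foxa1 was closest to Gpx2 (0.95), Upk3a (0.939) and Trh (0.934), where Trh and Tmprss2 are also markers used to name gut endoderm. Sox7 was closest to Abhd17a (0.926), Stab1 (0.926) and Pcdh12 (0.925), Gata6 to Papd4 (0.917), Gata5 (0.909) and Igf2r (0.902), and Sox17 to Glud1 (0.869), Prkch (0.858) and 0610009O20Rik (0.851). Among the members themselves the likest pair was Foxa3 and Hnf4a (r = 0.803) and the least like was Foxa1 and Sox7 (r = -0.103).

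Over the whole embryo, Foxa1 was the member with the largest log2 difference from WT in Dnmt1 KO. It was at 1.44, 1.03 and 1.02 CPM in the 3 Dnmt1 KO embryos, while WT ran from 1.66 through a median of 4.52 to 7.37 CPM. The groups did not overlap, although WT 7 came close to the Dnmt1 KO values. Foxa1 fell by 1.93 on the log2 scale (SE 0.32, edgeR quasi-likelihood test, adjusted p = 0.000189, n = 3 and 7). It was also lower in Dnmt1 KO than in Dnmt3a KO, by a log2 difference of -1.77 (SE 0.34, adjusted p = 0.000782), and than in Dnmt3b KO, by -1.99 (SE 0.36, adjusted p = 0.000784, and -2.07 with adjusted p = 0.00115 without Dnmt3b KO 12), comparisons in which 13.3% and 8.53% of genes were called. Foxa1 alone of 6 members was past both thresholds for a call (adjusted p below 1%, and at least 1 log2 unit up or down). The same thresholds called 14.2% of 18642 genes tested, so 1 call among 6 members does not set the members apart. In sums over a whole embryo, fewer cells of a type and less RNA per cell cannot be told apart, which is why the classes are given separately. ExE ectoderm, a trophoblast class, was 4.78 to 31.2% of kept cells in Dnmt1 KO and 0 to 1.72% in WT. With its cells left out Foxa1 was still lower in every Dnmt1 KO embryo (1.10 to 1.58 CPM against 1.66 to 7.37 CPM). Other classes differed as well. Epiblast-like cells numbered 246, 279 and 284 in the Dnmt1 KO embryos and at most 6 in a WT embryo. No Dnmt1 KO cell was classed as hindbrain and spinal cord, forebrain and midbrain or cardiomyocyte. The part of these differences in the Foxa1 value was not tested.

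The other members differed less over the whole embryo, in the other direction. Sox17 was at 32.6, 29.3 and 13.4 CPM in Dnmt1 KO against 9.87 to 20.8 CPM in WT (median 17.1), so the third embryo lay inside the WT range. Its log2 fold change was 0.75 (SE 0.23, adjusted p = 0.0163). Sox7 was at 4.42, 4.05 and 2.99 CPM against 1.93 to 3.17 CPM (median 2.55), and its log2 difference was 0.66 (SE 0.21, adjusted p = 0.0202). Dnmt1 KO 3 was again the embryo inside the WT range.

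Gata6 was at 44.4, 24.4 and 68.7 CPM in Dnmt1 KO against 25.8 to 32.8 CPM in WT (median 32.1), so its values lay on both sides of WT, and its log2 difference was 0.62 (SE 0.18, adjusted p = 0.0131). Hnf4a was at 24.0, 18.6 and 6.36 CPM against 5.13 to 14.4 CPM (median 8.77), which gave 0.80 on the log2 scale (SE 0.33, adjusted p = 0.0676). Foxa3 was at 10.6, 8.22 and 3.85 CPM against 3.49 to 7.85 CPM (median 6.43), with 0.40 (SE 0.25, adjusted p = 0.226). Without Dnmt1 KO 3, Sox17 (1.04, adjusted p = 0.00073) and Hnf4a (1.17, adjusted p = 0.0052) also passed both thresholds, so this 1 embryo decided their calls. The share of all genes called without this embryo is not given here. In Dnmt1 KO 3, 48.3% of kept cells were in clusters that could not be named, against 21.0 ± 5.58% in WT.

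**Figure D2:**
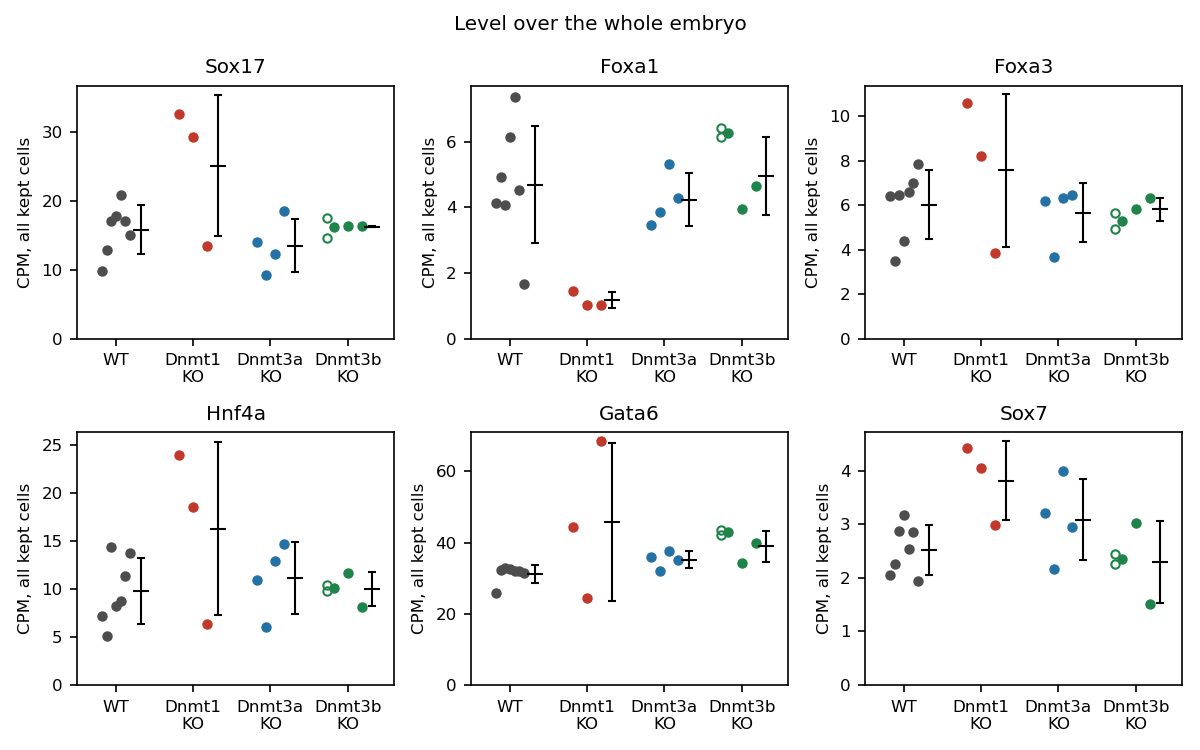
CPM of each factor over all kept cells (vertical axis) in every embryo by group, with bars at the mean ± SD over samples. Open circles are Dnmt3b KO 1 and 2 before they were averaged into 1 sample. The 3 Dnmt1 KO embryos have 1.02 to 1.44 CPM of Foxa1, below every WT embryo, and are spread widely in Gata6 (24.4 to 68.7 CPM).

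The classes that held the transcripts also differed between groups. In WT, gut endoderm held 34.4 ± 13.2% of Sox17 UMIs, yolk sac endoderm 27.9 ± 11.5% and endothelium 26.0 ± 10.4% (mean ± SD over embryos). In Dnmt1 KO, yolk sac endoderm held 77.1 ± 10.9%, gut endoderm 10.0 ± 5.04% and endothelium 6.37 ± 1.64%. The yolk sac share was above the whole WT range (17.8 to 50.4%) in every Dnmt1 KO embryo. For Sox7 the share in endothelium was 65.5 ± 10.7% in WT and 38.3 ± 10.4% in Dnmt1 KO, and that in yolk sac endoderm was 22.3 ± 12.2% and 52.2 ± 18.7%. Hnf4a UMIs lay in yolk sac endoderm in all groups, with group means from 92.4 to 97.1%. Foxa1 UMIs lay mostly in gut endoderm, with 70.1% in WT and 62.0% in Dnmt1 KO.

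**Figure D3:**
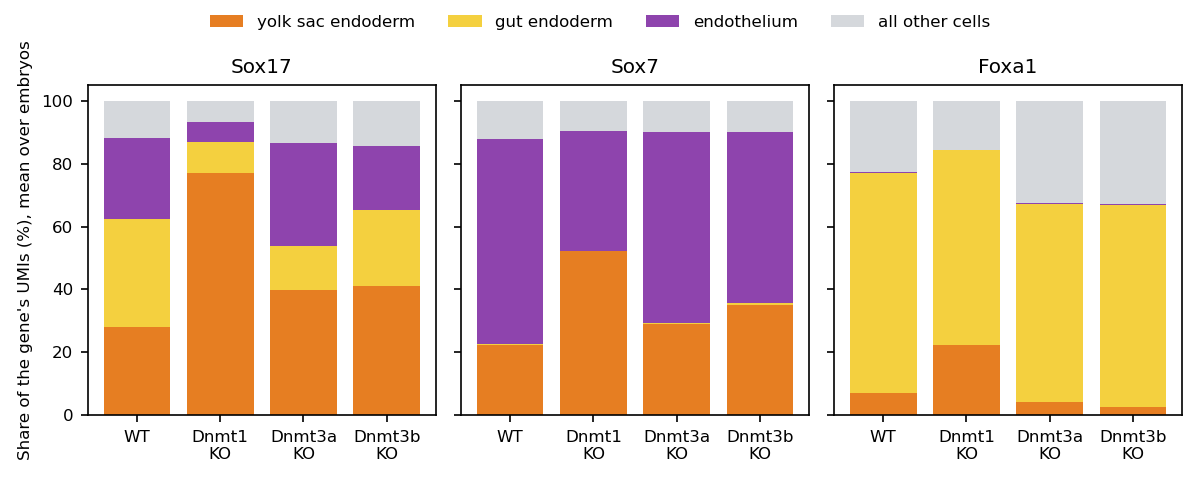
Share of the UMIs of Sox17, Sox7 and Foxa1 (vertical axis, %, mean over embryos) held by yolk sac endoderm, gut endoderm, endothelium and all other cells, by group. The yolk sac part of Sox17 is 77.1% in Dnmt1 KO and 27.9% in WT.

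The class shares themselves were also compared. Gut endoderm was 1.54 ± 0.414% of kept cells in Dnmt1 KO (1.28 to 2.02%) and 4.16 ± 1.61% in WT (1.77 to 6.32%), a log2 ratio of -1.33 (exact two-sided permutation test, p = 0.0333, adjusted over 9 tests p = 0.3). Yolk sac endoderm was 28.9, 27.3 and 11.2% of kept cells in Dnmt1 KO and 9.47 to 20.02% in WT (exact permutation test, adjusted p = 0.3). Endothelium was 5.10 ± 1.46% and 5.85 ± 2.002%. None of the 9 class shares passed the adjusted threshold of 0.05. The smallest p that 3 embryos against 7 allow is 0.0167. Alone among 9 tests, that p cannot pass after adjustment, so a single change in such a group could not be shown.

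Within yolk sac endoderm, Sox17 and Sox7 rose in Dnmt1 KO. Sox17 was at 67.9, 79.0 and 90.4 CPM in the 3 Dnmt1 KO embryos and at 18.8 to 44.0 CPM in WT (median 27.2), and the groups did not overlap. The means were 79.1 ± 11.3 and 30.4 ± 9.10 CPM, and the log2 fold change was 1.42 (SE 0.20, edgeR quasi-likelihood test, adjusted p = 5.2e-05). Sox7 was at 6.79, 8.44 and 9.59 CPM against 2.57 to 4.64 CPM (median 3.39), again with no overlap, and rose by 1.14 (SE 0.18, adjusted p = 0.000127). With the share of Y-linked counts as a covariate Sox17 was still called (1.59, adjusted p = 0.00206), whereas Sox7 was at 0.80 (adjusted p = 0.0574) and not called. These are 2 of 6 members called in this class, where 5.54% of 13691 genes were called.

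The other 4 members were not called in this class. Hnf4a, the regulator of serum protein genes, was at 58.8, 59.8 and 62.4 CPM in Dnmt1 KO, inside the WT range of 45.5 to 69.0 CPM, with a log2 fold change of -0.04 (95% interval -0.24 to 0.17). Gata6 was at 25.8 to 35.4 CPM against 14.98 to 24.8 CPM, without overlap, but its log2 fold change of 0.45 (SE 0.13, adjusted p = 0.014) was under the threshold. Foxa3 was at 22.02 to 23.6 CPM against 23.3 to 35.1 CPM, with -0.36 (adjusted p = 0.108). Foxa1, with 4 to 66 UMIs per embryo in these groups, was at 0.541 to 1.21 CPM against 1.27 to 2.65 CPM, with -0.89 (adjusted p = 0.0568).

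The yolk sac endoderm cells of Dnmt1 KO and WT lay only partly in the same clusters. In Dnmt1 KO, 70.3% of them fell in cluster 9, led by Pkd1l2 and Cubn. In WT, 51.0% of cells of the class fell in cluster 1, led by Cubn and Slc13a4. Cluster 2, led by Ttr and Apom, held 24.0% of the Dnmt1 KO cells and 30.3% of the WT cells, and cluster 12 held 5.3% and 18.4%. Clusters 2 and 12 were of shallow cells, with medians of 2215 and 6650.5 UMIs in WT. The 10 yolk sac endoderm markers summed to 17700 to 21160 CPM in Dnmt1 KO and 23760 to 34520 CPM in WT. The 6 parietal endoderm markers summed to 88.9 to 117.0 CPM and 57.8 to 75.9 CPM, moved mainly by Srgn (25.3 against 6.76 CPM) and Lama1 (21.8 against 9.89 CPM), while Thbd (0.163 CPM) and Plat (0.817 CPM) stayed under 1 CPM in Dnmt1 KO. The part of this list in the Sox17 and Sox7 values was not tested. The 12 endothelial markers summed to 80.0 to 99.0 CPM in Dnmt1 KO and 65.2 to 93.1 CPM in WT, so their summed levels overlapped. Of the 12, Emcn was at 0 in Dnmt1 KO and at 0.104 CPM in WT. Among cells with at least 10000 UMIs, an alternative added after the data were seen, both genes were again called.

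With each cell thinned to 3000 UMIs, 19.2 ± 4.67% of yolk sac endoderm cells had a Sox17 UMI in Dnmt1 KO and 6.61 ± 2.23% in WT, after 222 and 1087 shallower cells were left out. Unthinned, the shares were 62.4 ± 18.7% and 38.3 ± 11.7% at median depths of 49937 and 14163 UMIs. In WT erythroid cells, which should lack the gene, 0.0833% had a UMI after thinning and 0.882% before, at a median of 31350 UMIs.

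In endothelium, Sox17 moved the other way. It was at 56.8, 42.0 and 22.9 CPM in Dnmt1 KO and at 81.4 to 120.4 CPM in WT (median 91.2), with no overlap. Sox17 fell by 1.12 on the log2 scale (SE 0.19, edgeR quasi-likelihood test, adjusted p = 0.000141), and was the only 1 of 3 members tested in this class that was called, where 9.35% of 12016 genes were. Sox7, its endothelial relative, was at 40.7, 36.1 and 33.8 CPM against 34.3 to 48.6 CPM, with a log2 fold change of -0.02 (95% interval -0.35 to 0.30), and Gata6 had 0.13 (-0.18 to 0.44). The share of cells with a Sox17 UMI after thinning was 9.67 ± 2.96% in Dnmt1 KO and 19.1 ± 4.16% in WT.

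The call of Sox17 in endothelium rested in part on 1 embryo. Without Dnmt1 KO 3 its log2 fold change was -0.87 and it was not called. With the Y-linked covariate it was at -0.995 (adjusted p = 0.00873), just short of the fold threshold. The 12 endothelial markers summed to 1665 to 2501 CPM in Dnmt1 KO and 2763 to 3952 CPM in WT, and the 10 cardiomyocyte markers to 230.3 to 276.4 CPM and 38.3 to 187.3 CPM. The part of either list in the result was not tested. Of the Dnmt1 KO endothelial cells 54.7% were in cluster 42, led by Kdr and Cdh5, and 42.8% in cluster 17, led by Lyve1 and Gngt2, whereas WT cells were in clusters 17 (50.4%), 20 (39.7%) and 44 (9.36%).

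Set side by side within each embryo, as log2 CPM in yolk sac endoderm minus log2 CPM in endothelium, Sox17 was at 1.05 in Dnmt1 KO (0.258 to 1.98) and -1.68 in WT (-2.43 to -0.917). Sox17 was thus higher in yolk sac endoderm in every Dnmt1 KO embryo and higher in endothelium in every WT embryo. For Sox7 the same quantity was -2.17 in Dnmt1 KO (-2.58 to -1.82) and -3.49 in WT (-4.14 to -2.97), so endothelium was higher in every embryo of both groups. These values restate the levels given above and were not tested.

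In gut endoderm, the forkhead pair differed from WT in opposite directions in Dnmt1 KO but neither passed the fold threshold. Foxa1 was at 42.9, 48.1 and 29.3 CPM in Dnmt1 KO and 50.9 to 80.6 CPM in WT (median 71.9), with no overlap and a log2 difference of -0.65 (SE 0.16, edgeR quasi-likelihood test, adjusted p = 0.00525). Foxa3 was at 41.4, 39.1 and 44.2 CPM against 20.5 to 37.8 CPM (median 25.3), also with no overlap, and a log2 difference of 0.81 (SE 0.20, adjusted p = 0.00526). None of the 5 members tested here was called by edgeR, where 7.52% of 12819 genes were, and 2 of the 5 had an unadjusted p under 0.05. The gut class held 29, 38 and 29 cells in the Dnmt1 KO embryos and 53 to 304 in WT.

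Sox17 was at 142.5, 131.2 and 89.0 CPM in Dnmt1 KO and 32.3 to 182.4 CPM in WT, with a log2 fold change of 0.12 (95% interval -0.58 to 0.82). Gata6 had 0.02 (-0.29 to 0.33) and Hnf4a 0.87 (-0.005 to 1.75, adjusted p = 0.164). After thinning, 5.29 ± 1.60% of 94 gut cells had a Foxa1 UMI in Dnmt1 KO and 18.9 ± 3.14% of 1320 in WT, although the unthinned shares were 74.5 and 72.2% at median depths of 42110.5 and 34847 UMIs. For Foxa3 the thinned shares were 5.82 ± 7.90% in Dnmt1 KO and 6.31 ± 2.50% in WT, so the thinned mean was not higher in Dnmt1 KO. The unthinned shares of Foxa3 were 75.7 and 48.6%. The thinned shares come from 1 random draw. In the Dnmt1 KO embryos they were 0 to 14.8% for Foxa3 and 3.70 to 6.90% for Foxa1. With so few cells they cannot be weighed against the fitted differences. Of the Dnmt1 KO gut cells 97.9% were in cluster 47, led by Trh and Gpx2, and WT gut cells were in clusters 31 (53.6%) and 35 (44.9%). The yolk sac endoderm markers summed to 806 to 1735 CPM in Dnmt1 KO gut and 508 to 1701 CPM in WT gut, and the 13 gut markers to 6895 to 9198 and 3435 to 4631 CPM. A cluster of shallow cells nearest to gut endoderm stayed unnamed and held 0.228% of kept cells in Dnmt1 KO and 2.64% in WT.

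**Figure D4:**
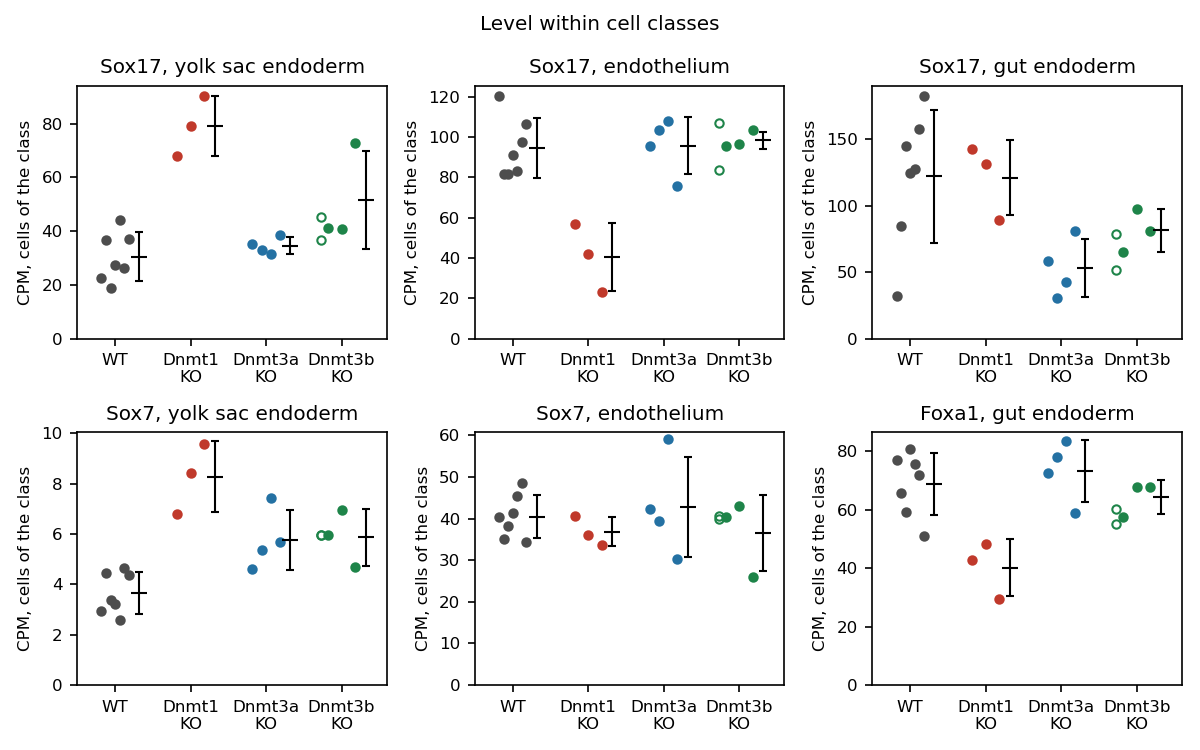
CPM of Sox17, Sox7 and Foxa1 within a cell class (vertical axis) in every embryo by group, with bars at the mean ± SD over samples and open circles for Dnmt3b KO 1 and 2 before averaging. In Dnmt1 KO, Sox17 lies above every WT embryo in yolk sac endoderm (67.9 to 90.4 CPM) and below every WT embryo in endothelium (22.9 to 56.8 CPM), while Sox7 in endothelium overlaps WT.

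With yolk sac endoderm cells left out of the whole-embryo sums, a choice made after the class values were seen, Sox17 was at 7.12 ± 2.09 CPM in Dnmt1 KO and 13.4 ± 3.95 CPM in WT, a log2 difference of -0.86 (SE 0.26, adjusted p = 0.0148) in place of 0.75. Foxa1 kept its call at -1.99 (adjusted p = 0.00018), and Sox7 was at 0.10, Gata6 at 0.67 and Foxa3 at 0.07. Gata6 was not called within any class that could be tested. In ExE mesoderm it was at 110.4 ± 19.1 CPM in Dnmt1 KO and 105.9 ± 6.91 CPM in WT, a log2 difference of 0.16 (SE 0.10, adjusted p = 0.239), but 99.7% of the Dnmt1 KO cells of this class were in cluster 23, led by Tdo2 and Stard8, and WT cells were in clusters 27 (60.8%) and 33 (38.5%). ExE mesoderm held 32.6% of Gata6 UMIs in Dnmt1 KO and 14.1% in WT, and unnamed cells 37.0% and 18.4%. Within the unnamed cells, which are of mixed kinds and were not fitted, Gata6 was at 79.7 to 113.5 CPM in Dnmt1 KO and 35.01 to 60.6 CPM in WT, without overlap and with a ratio of means of 2.08.

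Over the 5 classes that could be compared in Dnmt1 KO, 16 pairs of member and class were tested and 3 were called, those of Sox17 in yolk sac endoderm and endothelium and of Sox7 in yolk sac endoderm, against 7.76% of all pairs of gene and class. Another 5 had an unadjusted p under 0.05. With the Y-linked covariate, 2 of these 3 calls were lost, as given above, and Foxa3 in gut endoderm was called (1.12, adjusted p = 0.00317).

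The comparisons of Dnmt3a KO and Dnmt3b KO share their WT embryos with that of Dnmt1 KO. In Dnmt3a KO, no member was called over the whole embryo by edgeR or DESeq2 and none had an unadjusted p under 0.05, against 0.22% of genes called by edgeR. The log2 fold changes ran from -0.22 (Sox17, 95% interval -0.64 to 0.20) to 0.26 (Sox7, -0.12 to 0.64). In gut endoderm Sox17 was at 58.5, 81.0, 30.2 and 42.2 CPM against 32.3 to 182.4 CPM in WT, where 6 of 7 WT embryos lay above every Dnmt3a KO embryo and WT 1 lay among them. Its log2 fold change was -1.23 (SE 0.33, adjusted p = 0.168 by edgeR), and it was -0.02 in the fit with the replicate number as a block, which used the libraries numbered 1 and 2. No gene at all was called in this class (0.0% of 12819).

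Sox7 in yolk sac endoderm of Dnmt3a KO was at 4.60, 5.68, 5.35 and 7.42 CPM against 2.57 to 4.64 CPM in WT, so that only Dnmt3a KO 1 lay inside the WT range, and the log2 difference was 0.60 (SE 0.16, adjusted p = 0.0513). In notochord, Sox17 had 0 UMIs in Dnmt3a KO 13 and 14, and 12.4 CPM in Dnmt3a KO 2, against 12.7 to 52.0 CPM in 4 WT embryos. In Dnmt3a KO 13 and 14 a limit of 3 UMIs would be 4.58 and 3.73 CPM. This limit is lower than that of the Poisson interval used for parietal endoderm. The log2 fold change of Sox17 in notochord was -2.51 (SE 0.87, adjusted p = 0.812), and it was called only with no low-count filter (-2.54, adjusted p = 0.000119). It depended on single libraries, at -7.30 without Dnmt3a KO 2 and -1.87 without Dnmt3a KO 14. With the Y-linked covariate it could not be estimated (47.32, SE 57.75). The share of genes called in yolk sac endoderm was 0.708%. Foxa1 in yolk sac endoderm had -0.72 (adjusted p = 0.213). In endothelium the 3 members tested lay between -0.004 (Sox17) and 0.065 (Sox7), where 0.0832% of genes were called. Over 18 classes, 42 pairs of member and class were tested in Dnmt3a KO and 0 were called by edgeR or DESeq2, against 0.11% of all pairs, while 7 had an unadjusted p under 0.05.

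In Dnmt3b KO, again no member was called over the whole embryo by edgeR or DESeq2 or had an unadjusted p under 0.05, against 1.92% of genes called by edgeR. The log2 fold changes ran from -0.15 (Sox7, 95% interval -0.58 to 0.28, and 0.11 without Dnmt3b KO 12) to 0.29 (Gata6, -0.07 to 0.65). Gata6 was at 34.2, 39.9 and 42.9 CPM, above every WT embryo (25.8 to 32.8 CPM), and its log2 fold change was 0.30 without Dnmt3b KO 12 (39.9 CPM). In yolk sac endoderm Sox17 was at 41.0, 40.8 and 72.6 CPM against 18.8 to 44.0 CPM in WT, which gave 0.74 on the log2 scale (SE 0.205, adjusted p = 0.0445). The highest of these, 72.6 CPM, was the library labelled Dnmt3b KO 12, and without it the log2 fold change was 0.43 (adjusted p = 0.521).

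Sox7 in yolk sac endoderm of Dnmt3b KO was at 5.97, 6.95 and 4.70 CPM, all above the WT range of 2.57 to 4.64 CPM, a log2 difference of 0.63 (SE 0.18, adjusted p = 0.0544), and 0.77 (adjusted p = 0.0612) without the library labelled Dnmt3b KO 12. The share of genes called in that class was 1.34%. Without Dnmt3b KO 11 it was 0.45 (adjusted p = 0.361). Foxa1 in yolk sac endoderm had -1.04 (SE 0.34, adjusted p = 0.104), and -1.57 (adjusted p = 0.0368) without Dnmt3b KO 12. In gut endoderm Gata6 had -0.36 (SE 0.14, adjusted p = 0.230), and -0.28 (adjusted p = 0.875) without that library, where 0.975% of genes were called. In endothelium, where 0.824% were called, the 3 members lay between -0.26 and 0.03, and between -0.27 and 0.04 without it. Over 16 classes, 40 pairs were tested in Dnmt3b KO and 0 were called by edgeR or DESeq2, against 0.675% of all pairs, while 5 had an unadjusted p under 0.05.

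**Figure D5:**
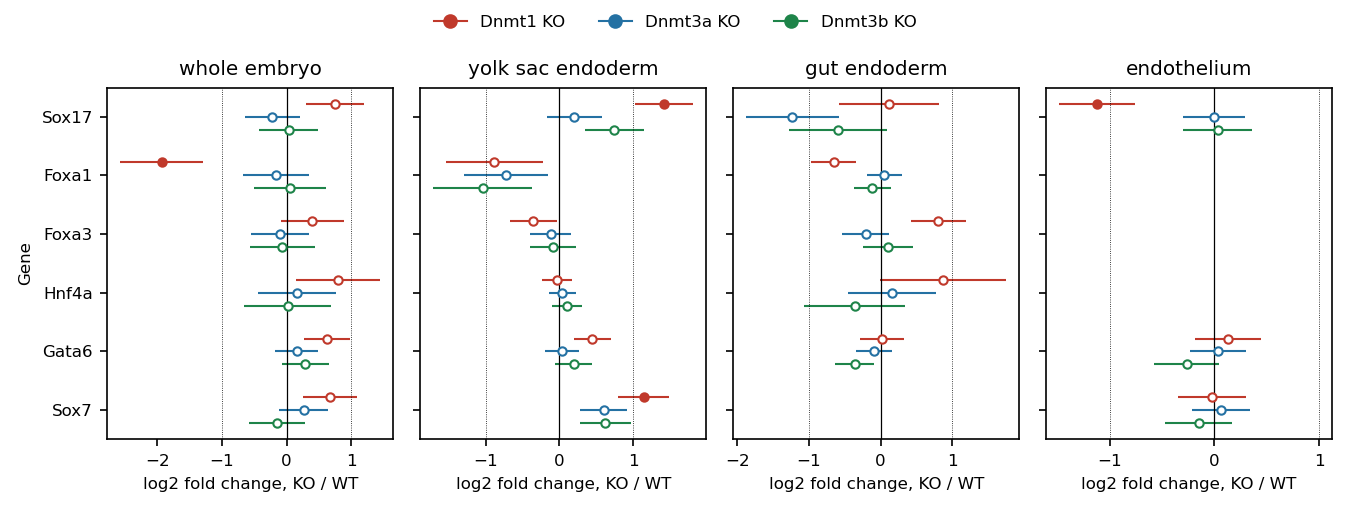
Log2 fold change of each factor (rows) in each KO group against WT (horizontal axis), over the whole embryo and within 3 classes, with approximate 95% intervals, filled points for called values and dotted lines at -1 and 1. The 4 filled points, all of Dnmt1 KO, are Foxa1 over the whole embryo (-1.93), Sox17 (1.42) and Sox7 (1.14) in yolk sac endoderm, and Sox17 in endothelium (-1.12).

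The genes that act around these factors were counted from 3 lists, chosen with earlier results of these data known. Of 10 genes of endoderm induction, 1 was called higher and 3 lower over the whole embryo in Dnmt1 KO, with a median log2 fold change of -1.34 beside 0.02 over all genes and 14.2% of all genes called. Eomes, a regulator of early endoderm and also of trophoblast, rose by 3.04 (SE 0.32, adjusted p = 1.5e-06), from 0.571 ± 0.169 CPM in WT to 4.48 ± 3.06 CPM. In the 3 Dnmt1 KO embryos 63.2, 86.4 and 64.1% of Eomes UMIs were in ExE ectoderm, and with that class left out Eomes was at 1.23, 1.69 and 0.908 CPM, against 0.346 to 0.899 CPM in WT. The Nodal co-receptor Tdgf1 fell by 1.74, the homeobox gene Gsc by 1.77 and the homeobox gene Mixl1 by 1.29 on the log2 scale. In gut endoderm 5 genes of this list were tested and 1 was called by edgeR, where 7.52% of all genes were called. That gene, Eomes, rose by 2.52 (0.735 to 3.97 CPM). The 11 ExE ectoderm markers, which do not include Eomes, summed to 47.6 to 81.4 CPM in Dnmt1 KO gut and 20.3 to 42.0 CPM in WT gut, with Wnt7b at 0 in Dnmt1 KO, and their part in this value was not tested. In yolk sac endoderm 0 of 6 tested genes of this list were called by edgeR or DESeq2, with 1 at an unadjusted p under 0.05 and 5.54% of all genes called by edgeR.

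Of 16 paralogues and partner factors, 1 was called higher and 3 lower over the whole embryo in Dnmt1 KO, with a median of -0.16, beside the 14.2% of all genes called. Sox18, the third SoxF gene and an endothelial factor, fell by 1.52 (SE 0.25), and within endothelium by 1.46 (SE 0.21), from 173.6 ± 36.1 to 58.6 ± 12.2 CPM. The nuclear receptor Nr2f2 fell by 1.42 over the whole embryo, by 1.79 in endothelium and by 3.07 in gut endoderm, and the foregut factor Nkx2-1 fell by 3.51 from 0.167 CPM in WT. Cebpa was called higher (1.958), with embryos at 0.173 to 2.07 CPM against 0.152 to 0.356 CPM in WT, so the groups overlapped. Foxa2, the closest relative of Foxa1 and Foxa3, had -0.11 over the whole embryo, -0.07 in gut endoderm and -0.05 in yolk sac endoderm (adjusted p = 0.729, 0.71 and 0.775). Gata4, the closest partner of Gata6, had 0.50 in yolk sac endoderm (SE 0.11, adjusted p = 0.00348), under the fold threshold.

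Of 12 secretory and uptake genes of visceral endoderm, 0 were called over the whole embryo in Dnmt1 KO by edgeR or DESeq2, with 2 at an unadjusted p under 0.05 and a median of 0.37, beside the 14.2% of all genes called by edgeR. Within yolk sac endoderm 11 were tested and 2 were called lower, the apolipoprotein gene Apoc2 (-1.24, SE 0.25) and the transferrin gene Trf (-1.18, SE 0.20, 134.6 ± 21.99 CPM against 305.3 ± 74.4 CPM), with a median of -0.52 beside -0.006 over all genes and 5.54% of genes called in the class. Within gut endoderm, with 7.52% of genes called, 2 of 10 were called higher, the apolipoprotein gene Apob (2.62, 146.6 ± 90.8 CPM against 24.7 ± 17.1 CPM) and the microvillus gene Vil1 (2.02, 20.3 ± 5.83 CPM against 5.58 ± 1.66 CPM). In endothelium, with 9.35% of genes called, 9 were tested and 1 was called lower, the endocytic adaptor Dab2 (-1.93). In Dnmt3a KO no gene of the 3 lists was called by edgeR over the whole embryo or in these classes, beside 0.22% of all genes over the whole embryo and 0.0 to 0.708% in the classes. In Dnmt3b KO, edgeR called 1.92% of all genes over the whole embryo and 0.824 to 1.34% in the classes. DESeq2 called 1 of the 12 secretory and uptake genes over the whole embryo. By edgeR, only Lefty1, a Nodal inhibitor, was called, in yolk sac endoderm (-3.13, 0.0548 to 0.140 CPM against 0.0969 to 1.496 CPM in WT, so the groups overlapped). It was at 0.239 CPM there in Dnmt3a KO (-2.03, adjusted p = 0.0129) and 0.428 CPM in Dnmt1 KO (-1.12, adjusted p = 0.0761), and was not called in either. Without Dnmt3b KO 12 it was again at -3.13 but not called (adjusted p = 0.0207), and without Dnmt3b KO 11 at -3.53 (adjusted p = 0.0161).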

How the data were processed

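Single cells of whole E8.5 embryos were profiled in 18 libraries, and the deposited files hold raw UMI counts per gene and barcode, which the authors made with Cell Ranger (version 3.1.0 for 17 libraries and 5.0.0 for 1, per the submitters' processing notes). The mouse reference was mm10, and for 4 libraries the reference also held human genes, which were dropped. The values in the files are counts without normalization. The 6 members and all gene lists were chosen with earlier results of these data known.

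Barcodes with at least 1500 mouse UMIs, at most 30% mitochondrial and 35% ribosomal counts were kept (115626), and 7646 barcodes with the highest Scrublet scores were removed as doublets at an assumed rate that rises in proportion to the number of cells. Up to 1500 cells per library (26797 in all) were clustered on 2500 variable genes and 50 principal components with 30 neighbours and Leiden resolution 2 (scanpy 1.11.5, leidenalg 0.10.2), leaving out the members, the pathway genes and mitochondrial, ribosomal and sex-linked genes. Of 49 clusters, 38 were named by marker genes and the other cells took the majority of their nearest neighbours. One of the named clusters is called by its first leading genes, Lhx1 and Osr1. They are markers of intermediate mesoderm, while Alx1 and Prrx1 among its leading genes are markers of its named class. The cell types are rebuilt, not the authors' annotation.

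Raw counts were summed per embryo and class (at least 25 cells, at least 3 samples per group) and fitted over all genes and all groups, which share one estimate of the spread, with edgeR 4.0.16 (quasi-likelihood test, TMM, filterByExpr) in R 4.3.3. Adjusted p-values are Benjamini-Hochberg values over all genes tested. A call needed an adjusted p below 1% and at least 1 log2 unit up or down. The SE is the log2 fold change divided by the square root of the F statistic. The 95% intervals of fold changes use this SE with a normal quantile, so they are approximate and somewhat narrow. For Sox17 in erythroid cells of Dnmt3a KO the interval was 0.051 to 2.08 although the unadjusted edgeR p was 0.0558. In the main fits Dnmt3b KO 1 and 2 entered as their rounded mean, and with the replicate block as separate samples. Named genes were all members, at most 8 called genes of the 3 lists per KO group by size of change and, for likeness, the 3 genes with the highest r, among genes with at least 10 CPM in a class. Tdgf1, Mixl1, Sox18, Apoc2, Trf, Foxa2 and Gata4 fall outside this rule and were named after their values were seen. Class shares were compared as log2 of cells plus 0.5. Alternatives were DESeq2 1.42.0, RLE size factors, no low-count filter, covariates for Y-linked counts and counting reference, the replicate number as a block, all barcodes, thinned sums, a minimum of 50 cells per class, and leaving out each library. Intervals and limits on counts cover counting error only. The edgeR test was also run on counts simulated for WT and 1 KO group at a time. Of genes given a log2 change of 1.5 or 2, between 72.4 and 94.2% were called. The reported fits join all groups, so these simulations do not check them directly.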

Additional observations from a re-analysis of the deposited data

Results flagged for a closer look

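Sox17 stood out because every one of the 3 Dnmt1 KO embryos was above all 7 WT embryos in yolk sac endoderm and below all of them in endothelium. The difference between these classes was 2.73 larger in Dnmt1 KO than in WT on the log2 scale. This difference was not tested.

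Single embryos stood apart from their group in 3 of 42 checks, where chance gives about 1 in 20. Foxa3 over the whole embryo was at 3.68 CPM in Dnmt3a KO 13, while the next of the 4 Dnmt3a KO embryos was at 6.19 CPM. Gata6 over the whole embryo was at 25.8 CPM in WT 1, while the other WT embryos began at 31.5 CPM. Gata6 in gut endoderm was at 75.4 CPM in WT 2, and the next WT embryo was at 55.8 CPM.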

How the results depend on the processing

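Foxa1 over the whole embryo in Dnmt1 KO was called under every alternative run, with log2 fold changes of -2.09 to -1.82 when single libraries were left out. The number of members called there was 1 to 3, and was 3 without Dnmt1 KO replicate 3, when Sox17 (range over leave-outs 0.55 to 1.04) and Hnf4a (0.45 to 1.17) joined. Pairs of member and class called in Dnmt1 KO numbered 2 to 3 when single libraries were left out, and 2 to 4 over 10 other alternatives. In Dnmt3a KO, 1 pair was called with no low-count filter, that of Sox17 in notochord. The shares of all genes called in these alternative fits are not given here, so the counts of members and pairs cannot be set against them.

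Outside yolk sac endoderm the direction turned for Sox17 (-0.86) and Hnf4a (-0.58) in Dnmt1 KO and for Sox17 (-0.29) and Foxa3 (0.30) in Dnmt3b KO. With the Y-linked covariate it turned for Foxa3 (0.33) and Sox7 (-0.0538) in Dnmt3a KO and for Foxa1 (-0.0414) and Foxa3 (0.20) in Dnmt3b KO. Hnf4a in Dnmt3b KO turned to -0.031 over all barcodes with 1500 or more UMIs and to -0.0184 when thinned to the smallest library. The causes were not tested, and none of these values was called. Leaving out single libraries moved values across 0 for Foxa3 (-0.19 to 0.0396) and Hnf4a (-0.0274 to 0.36) in Dnmt3a KO. In Dnmt3b KO it did so for Sox17 (-0.0458 to 0.0824), Foxa1 (-0.0812 to 0.17), Foxa3 (-0.16 to 0.0031), Hnf4a (-0.17 to 0.17) and Sox7 (-0.46 to 0.11). Among the class shares it did so for endothelium in Dnmt1 KO (-0.38 to 0.0321) and Dnmt3a KO (-0.14 to 0.0736) and yolk sac endoderm in Dnmt3a KO (-0.18 to 0.55).

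Replicate numbers are shared by labels of different groups, but same-numbered embryos did not deviate together throughout (correlations of -0.428 to 0.502 over 9418 genes), so the numbers were not taken as pairs. With the replicate block, Foxa1 over the whole embryo was at -1.94 in Dnmt1 KO, and Sox17 (0.14) and Foxa3 (0.0257) turned in Dnmt3a KO. Under the block 1 and 0 members were called over the whole embryo and 3 and 0 pairs by class in Dnmt1 KO and Dnmt3a KO. The shares of all genes called under the block are not given here, so these counts cannot be set against them. The Dnmt3b KO group of this fit was Dnmt3b KO 1 and 2 alone. They entered as separate samples although they share most barcodes, so no count is given for that group. Notochord could not be fitted with it. Low counts limit Foxa1 in yolk sac endoderm, with 4 to 66 UMIs per embryo of Dnmt1 KO and WT.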
